A study of Caenorhabditis elegans with 15 samples.

Results

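The C-type lectin (clec) genes of Caenorhabditis elegans were followed across 5 genotypes of whole adult worms. A gene was taken as a member when its WBcel235 symbol was clec- followed by digits only, which gave 240 gene records with 237 different symbols, of 46739 genes counted; clec-15, clec-209 and clec-249 each have 2 records. All 240 are annotated as protein coding, and all but 5 had at least 1 count in the 15 libraries. RefSeq lists 25 further loci with clec symbols as pseudogenes, which are not members.

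C-type lectin-like domains are compact folds stabilised by disulfide bonds, some of which bind sugars in the presence of calcium. Worms lack antibodies, and many clec genes encode secreted proteins made in the intestine whose transcripts change when worms eat pathogenic bacteria. PMK-1 p38 kinase signalling, the DBL-1 (TGF-beta-like) pathway and other regulators are known to act on subsets of them. Other clec genes are expressed in the germ line, in sperm-producing tissue or in neurons, so that the family name says little about where a given member works.

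The libraries come from 5 genotypes with 3 libraries each. These are gld2-ccf1, gld2-ccr4 and gld2-parn1, labelled as double knock-outs of gld-2 with ccf-1, ccr-4 or parn-1, then gld2, labelled as the single knock-out, and wild type (wt). GLD-2 is a cytoplasmic poly(A) polymerase that lengthens poly(A) tails in the germ line, CCF-1 and CCR-4 are deadenylase subunits of the CCR4-NOT complex, and PARN-1 is another deadenylase, known in worms for trimming piRNA ends. Every mutant carries the gld-2 knock-out by its label, so gld2 against wt asks what goes with the knock-out they share, and a double against gld2 asks what differs in libraries labelled with a further knock-out. Adults were picked 24 h after the mid-L4 stage. Total RNA was depleted of ribosomal RNA before strand-specific library preparation. The alleles, and whether replicate libraries came from separate cultures, are not given in the sources used here. The p-values therefore measure the spread between these libraries, which may be technical.

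Libraries held 28065395 to 39445449 counts. The targeted genes did not all follow the labels. gld-2 averaged between 51.0 and 57.5 counts per 1000000 library counts (CPM) in the 4 mutants and 192 CPM in wt, and ccr-4 was lower in gld2-ccr4 (178 ± 8.5 CPM, SD, n = 3) than in gld2 (293 ± 17 CPM). ccf-1, however, stood at 49655, 21533 and 16518 CPM in the libraries labelled gld2-ccf1, against 32.1, 30.3 and 36.5 CPM in gld2, and parn-1 averaged 62.2 ± 7.1 CPM in the libraries labelled gld2-parn1 against 52.8 ± 5.4 CPM in gld2. The names gld2-ccf1 and gld2-parn1 below therefore stand for libraries labelled so. Nuclear ribosomal RNA took over 4% of the counts in 4 libraries: gld2-ccf1 replicate 2 (14.3%), gld2-parn1 replicate 3, gld2 replicate 3 and wt replicate 1.

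The members were placed in 3 classes. The first holds 25 intestinal immune-type genes expressed in wt, drawn from a list of 31 symbols picked by hand from general knowledge of the family. The second holds 98 members silent in wt, defined as 3 or fewer counts summed over the 3 wt libraries, of which 73 had 0 counts and 25 had 1 to 3. The remaining members are the other ones expressed in wt. Of the 31 listed symbols, clec-46 is not annotated as a gene, and 6 records (clec-60, clec-61, clec-82, clec-174 and both records of clec-209) fell in the silent class. At the limit, 5 members had exactly 3 wt counts and 0 to 24 counts in gld2, and 11 members had 4 wt counts and 0 to 255 counts in gld2. A filter on low counts left 125 members for testing, 24 immune-type, 16 silent and 85 other; the 115 members not tested are described by their counts only.

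Levels are CPM of the library total, and levels of different genes are compared as transcripts per 1000000 (TPM), which divides by exon length. Log2 fold changes are given ± SE from edgeR's quasi-likelihood test, with p-values adjusted by Benjamini-Hochberg over all 16888 genes tested. A gene is said to be higher, lower or changed where the adjusted p was under 0.05.

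Summed over all members, the family took 1850 to 2404 CPM in gld2-ccf1, 2193 to 2410 CPM in gld2-ccr4, 1812 to 2024 CPM in gld2-parn1, 1737 to 1875 CPM in gld2 and 2010 to 2192 CPM in wt. The gld2-ccf1 and gld2-parn1 totals overlapped the range of wt, those of gld2-ccr4 started at its upper end, and those of gld2 lay below it. The 25 immune-type members summed to 394, 275 and 389 CPM in gld2-ccf1, 401, 500.4 and 454 CPM in gld2-ccr4, 269, 267 and 246 CPM in gld2-parn1, 272, 273 and 255 CPM in gld2 and 229.9, 212 and 211 CPM in wt. All gld2-ccr4 libraries lay above every gld2-parn1, gld2 and wt library, as did all gld2-ccf1 libraries. The lowest of them, gld2-ccf1 replicate 2 at 275 CPM, was the library with the most ribosomal RNA and came close to the highest gld2 library at 273 CPM. Most of the gld2-ccf1 sum came from clec-41 and clec-218, whose levels are given below. The median log2 fold change against gld2 of the 24 tested members of the class was -0.056 in gld2-ccf1 and 0.63 in gld2-ccr4. The 98 silent members summed to 14.003 to 20.5 CPM in gld2-ccf1, 13.2 to 17.5 CPM in gld2-ccr4, 12.6 to 15.99 CPM in gld2-parn1, 10.7 to 11.9 CPM in gld2 and 0.311 to 0.556 CPM in wt. These sums are descriptions and carry no test.

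**Figure D1:**
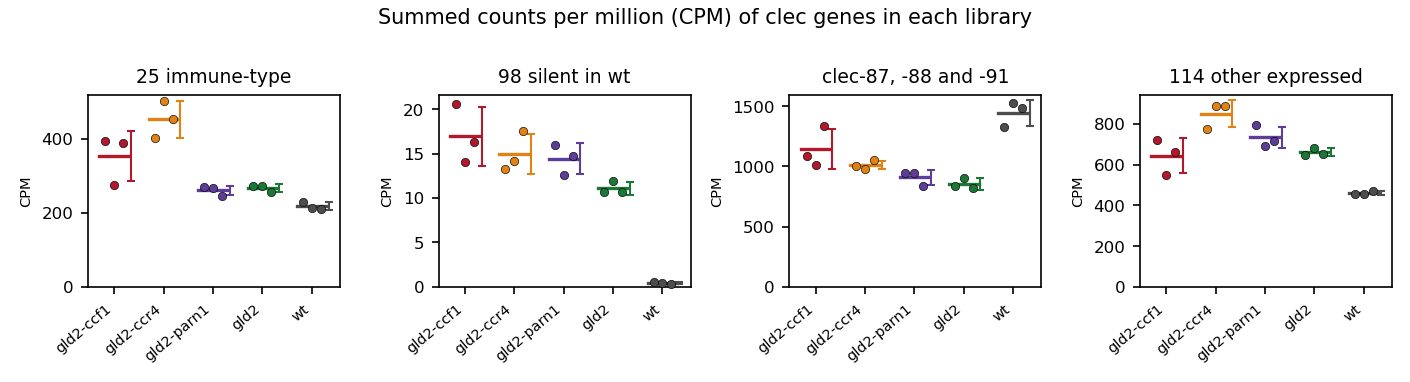
Summed CPM of 4 sets of clec genes (panels) in each library (points, 3 per genotype); lines are means and bars the SD. The immune-type sum was 275 CPM or more in all gld2-ccf1 and gld2-ccr4 libraries and 273 CPM or less in the others, and the clec-87, clec-88 and clec-91 sum was highest in wt.

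A few germline members dominate the family. clec-87, clec-88 and clec-91, which stand on a hand-made list of lectins of the germ line, held 53.1% of all clec counts in gld2-ccf1, 43.4% in gld2-ccr4, 47.4% in gld2-parn1, 47.6% in gld2 and 68.1% in wt. By TPM they were the 3 most abundant members in wt, at 1352 ± 85.7, 343 ± 6.04 and 305 ± 16.9 TPM (SD, n = 3), followed by clec-1 at 97.8 ± 1.74 TPM and clec-63 at 83.3 ± 22.5 TPM. clec-87 (chromosome I, 10184462 to 10185520) was measured at 738, 694 and 920.0 CPM in gld2-ccf1, 647, 626 and 695 CPM in gld2-ccr4, 589.8, 589 and 539 CPM in gld2-parn1, 516, 567 and 519 CPM in gld2 and 856, 1019.9 and 977 CPM in wt. Every mutant library except gld2-ccf1 replicate 3 was below every wt library. Its log2 fold change in gld2 against wt was -1.03 ± 0.07 (adjusted p = 5.72e-10), and 14.4% of its exon length is overlapped by iars-2 on the other strand. clec-91 had 115, 103.97 and 147 CPM in gld2-ccf1, 119.1, 111 and 125 CPM in gld2-ccr4, 121, 118.7 and 103 CPM in gld2-parn1, 108, 104.4 and 97.8 CPM in gld2 and 173, 203 and 195 CPM in wt. clec-88 had 237, 213 and 269 CPM in gld2-ccf1, 238, 245 and 229.8 CPM in gld2-ccr4, 236, 236 and 193 CPM in gld2-parn1, 213, 237 and 202 CPM in gld2 and 295, 302 and 315 CPM in wt. For clec-88 and clec-91 no mutant library reached the lowest wt library, with log2 fold changes in gld2 against wt of -0.68 ± 0.07 (adjusted p = 4.04e-08) for clec-88 and -1.08 ± 0.08 (adjusted p = 7.46e-10) for clec-91. In gld2-ccf1 all 3 were higher than in gld2, clec-87 by 0.63 ± 0.07 (adjusted p = 1.75e-06), clec-88 by 0.22 ± 0.07 (adjusted p = 0.0117) and clec-91 by 0.32 ± 0.08 (adjusted p = 0.00342), and all 3 were lower than in wt, clec-87 with a log2 fold change of -0.39 ± 0.07 (adjusted p = 0.000166). When libraries were scaled on genes of body tissues (somatic scaling) these rises came to 0.13 for clec-87, which was no longer called, and turned to -0.28 for clec-88 and -0.18 for clec-91. That of clec-88 was also not called without the libraries above 4% ribosomal RNA (adjusted p = 0.0647), under DESeq2 (0.0641), under the RLE scaling of DESeq (0.0553) and in a fit of the 6 libraries alone (0.0555). Of 25 oocyte markers, 0 were higher and 19 were lower in gld2 against wt, where 28.8% and 20.2% of all genes tested were called. The summed levels of the markers were 10322 to 11140 CPM in gld2 and 16536 to 18624 CPM in wt. Their part in the levels of these lectins was not tested. In bulk RNA of whole worms, fewer cells of a type and less RNA per cell cannot be told apart.

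**Figure D2:**
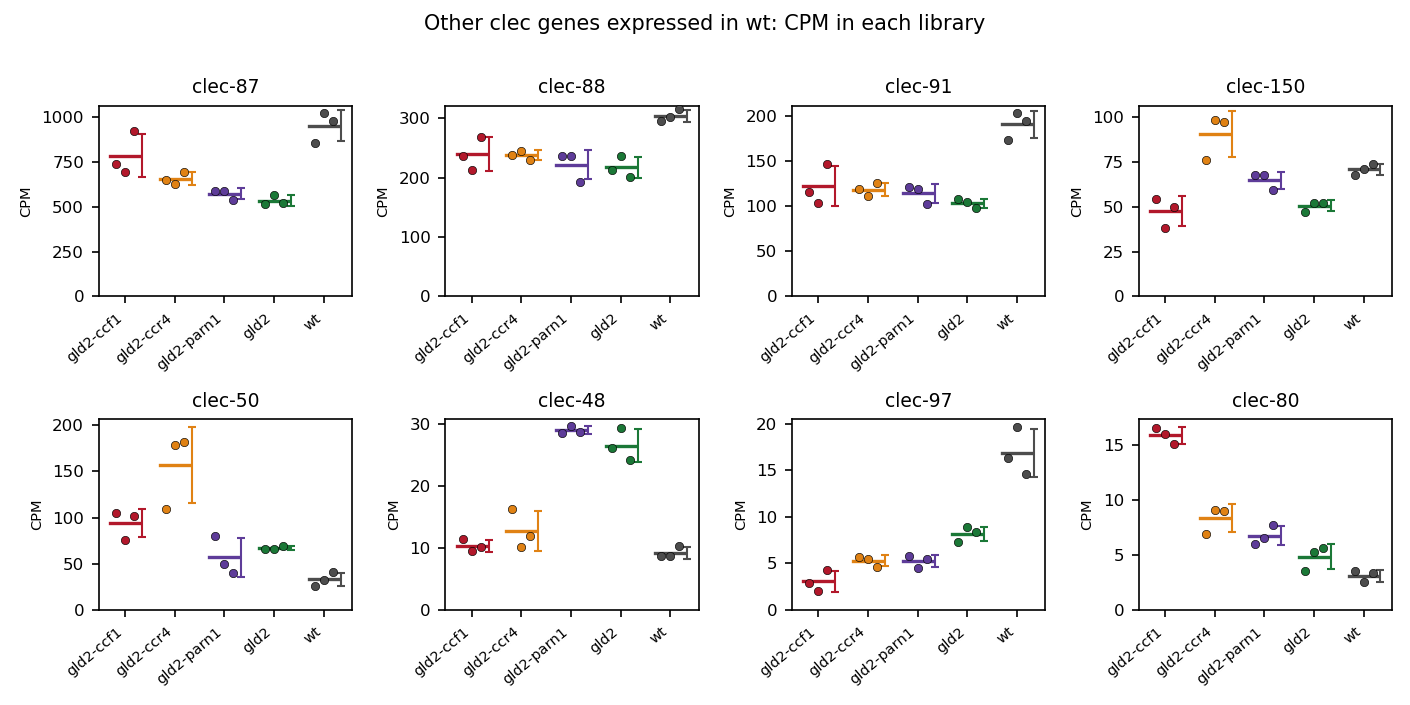
CPM of 8 clec genes outside the immune list in each library (points); lines are means and bars the SD, and every axis starts at 0. clec-87, clec-88 and clec-91 were highest in wt, clec-48 was high in gld2-parn1 and gld2, clec-50 was highest in gld2-ccr4 and clec-80 in gld2-ccf1.

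In gld2 against wt, 27 of the 109 tested members expressed in wt were higher and 17 lower, where 28.8% and 20.2% of all genes tested were called. The shares over all genes still include genes silent in wt, so they are not like for like with these member counts. The 27 also include members near 0 in wt, such as clec-73 and clec-79, that passed the low-count filter only through the mutants. With the silent members kept, 37 of the 125 tested members were higher and 17 lower. The median log2 fold change of the 109 members was 0.44, against 0.13 over all genes. The 16 tested silent members are left out of counts against wt, unless all 125 tested members are named, because their choice by wt counts fixes the direction. The immune-type class had 6 higher and 5 lower of 24, with a median of 0.27, and the other expressed members had 21 higher and 12 lower of 85, with a median of 0.51.

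The members highest above wt were nearly absent from wt. clec-73 (chromosome IV, 3954030 to 3956195) had 20.1, 12.4 and 21.8 CPM in gld2-ccf1, 41.1, 32.1 and 49.996 CPM in gld2-ccr4, 56.7, 54.7 and 58.97 CPM in gld2-parn1, 30.4, 42.01 and 46.9 CPM in gld2 and 0, 0 and 0.233 CPM in wt. Its only 9 wt counts came from replicate 3, and every mutant library was at 12.4 CPM or more. clec-79, a neighbour in the same run of clec genes (3973349 to 3975721), had 15.2, 11.15 and 19.6 CPM in gld2-ccf1, 32.5, 28.7 and 37.4 CPM in gld2-ccr4, 53.0, 47.4 and 57.2 CPM in gld2-parn1, 27.8, 36.9 and 42.7 CPM in gld2 and 0.0293, 0.0317 and 0.233 CPM in wt. clec-151 (chromosome III, 4628465 to 4631132) had 8.96, 5.02 and 9.61 CPM in gld2-ccf1, 14.1, 13.6 and 20.6 CPM in gld2-ccr4, 27.4, 22.8 and 24.99 CPM in gld2-parn1, 14.1, 18.3 and 18.1 CPM in gld2 and 0.0585, 0.0634 and 0.181 CPM in wt. Log2 fold changes in gld2 against wt were 8.62 ± 0.48 (adjusted p = 1.12e-08) for clec-73, 8.19 ± 0.37 (adjusted p = 5.85e-11) for clec-79 and 7.10 ± 0.33 (adjusted p = 1.45e-12) for clec-151. clec-123 (chromosome II, 3114234 to 3116762) had 10.8, 8.48 and 15.1 CPM in gld2-ccf1, 27.8, 22.9 and 30.2 CPM in gld2-ccr4, 38.2, 29.4 and 38.2 CPM in gld2-parn1, 12.6, 17.9 and 19.9 CPM in gld2 and 0.0293, 0 and 0.389 CPM in wt. Its log2 fold change was 6.58 ± 0.50 (adjusted p = 1.42e-07) in gld2 against wt. clec-182, at the edge of the silent class with 4 wt counts, had 1.16, 0.392 and 1.09 CPM in gld2-ccf1, 2.39, 1.81 and 2.83 CPM in gld2-ccr4, 4.21, 4.09 and 6.60 CPM in gld2-parn1, 2.21, 2.75 and 1.88 CPM in gld2 and 0.0585, 0 and 0.0518 CPM in wt. Its log2 fold change there was 5.59 ± 0.55 (adjusted p = 5.37e-08). For each of these genes every mutant library was above every wt library. In wt none of them exceeded 0.389 CPM, and they passed the low-count filter only through the mutant libraries, where they were high. Their direction and adjusted p against wt are therefore not independent of that filter. How the authors treated reads that map to several genes is not given in the sources used here, so whether counts were split between similar clec genes could not be checked.

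These members also differed between the mutants. In gld2-ccf1 against gld2, clec-73, clec-79, clec-151 and clec-182 were lower, with log2 fold changes of -1.08 ± 0.27 (adjusted p = 0.00695) for clec-73, -1.16 ± 0.21 (adjusted p = 0.000488) for clec-79, -1.04 ± 0.20 (adjusted p = 0.000409) for clec-151 and -1.29 ± 0.36 (adjusted p = 0.00773) for clec-182. The call of clec-73 was lost without the libraries above 4% ribosomal RNA (adjusted p = 0.0743). In gld2-ccr4 none of these 4 passed the test against gld2, with log2 fold changes from -0.14 to 0.036. In gld2-parn1 the highest mean levels of clec-73, clec-79, clec-123, clec-151, clec-175 and clec-182 were found, and 3 of them passed the test against gld2, clec-123 at 1.09 ± 0.31 (adjusted p = 0.0416), clec-175 at 1.15 ± 0.30 (adjusted p = 0.0201) and clec-182 at 1.16 ± 0.33 (adjusted p = 0.0314). Each of these 3 calls was lost when gld2 replicate 1 or gld2-parn1 replicate 1 or 3 was left out, with adjusted p between 0.0576 and 0.203. Those of clec-123 and clec-182 were also lost without gld2 replicate 2 or 3 (adjusted p between 0.0539 and 0.115). Leaving out gld2-ccf1 replicate 1 or any 1 gld2-ccr4 library ended the call of clec-123 as well (adjusted p up to 0.0635). Sperm markers were counted in the same comparisons. Of 41 tested records of the sperm list (43 records in all), 39 were higher and 0 lower in gld2 against wt, 0 were higher and 19 lower in gld2-ccf1 against gld2, 1 was higher and 6 lower in gld2-ccr4 against gld2, and 6 were higher and 0 lower in gld2-parn1 against gld2. The shares of all genes tested were 28.8% and 20.2%, 19.8% and 16.7%, 11.1% and 9.23%, and 4.90% and 4.90%, in the same order. The summed level of the sperm markers was 270.5 to 348 CPM in gld2-ccf1, 368 to 456 CPM in gld2-ccr4, 591 to 695 CPM in gld2-parn1, 440.1 to 515 CPM in gld2 and 13.02 to 21.4 CPM in wt. In wt 8 of the 43 records were at 0 counts. The part of sperm content in the levels of these clec genes was not tested.

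**Figure D3:**
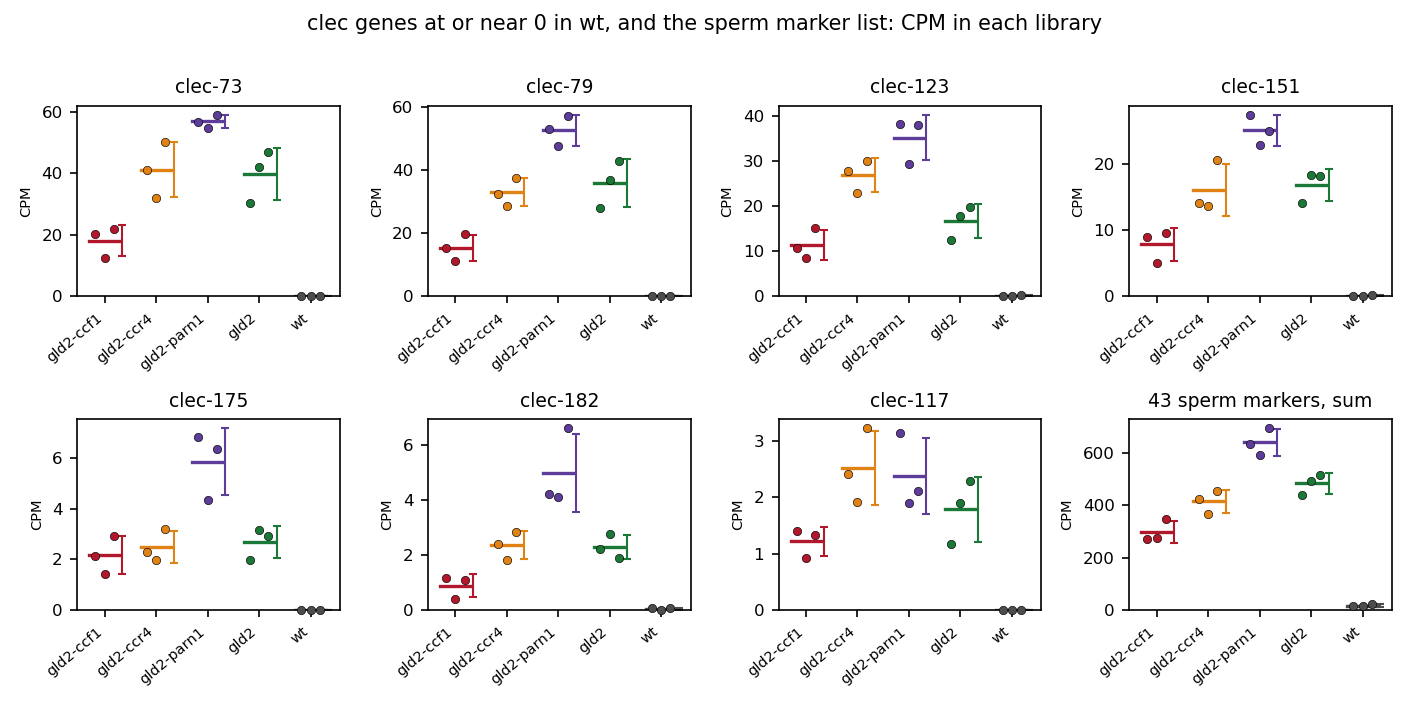
CPM of 7 clec genes at or near 0 in wt, and the summed CPM of the sperm marker list (last panel), in each library (points); lines are means and bars the SD. For 6 of the 7 genes, as for the markers, the mean was highest in gld2-parn1; for clec-117 it was highest in gld2-ccr4.

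Among members expressed in wt, clec-48 (chromosome V, 18158026 to 18159614) was higher in gld2 than in wt and lower in gld2-ccf1 and gld2-ccr4 than in gld2. It had 11.4, 9.55 and 10.2 CPM in gld2-ccf1, 16.3, 10.1 and 11.9 CPM in gld2-ccr4, 28.7, 29.8 and 28.7 CPM in gld2-parn1, 26.1, 29.4 and 24.2 CPM in gld2 and 8.63, 8.71 and 10.3 CPM in wt. The gld2-parn1 and gld2 libraries formed the high group and did not overlap the other 9. Log2 fold changes were 1.34 ± 0.15 (adjusted p = 2.5e-07) in gld2 against wt, -1.27 ± 0.15 (adjusted p = 1.72e-06) in gld2-ccf1 against gld2 and -1.07 ± 0.15 (adjusted p = 3.63e-05) in gld2-ccr4 against gld2. clec-146 had 8.54, 3.56 and 3.28 CPM in gld2-ccf1, 4.11, 3.69 and 3.54 CPM in gld2-ccr4, 5.50, 5.07 and 5.85 CPM in gld2-parn1, 9.51, 10.2 and 10.4 CPM in gld2 and 3.36, 3.17 and 2.25 CPM in wt. All 3 gld2 libraries were above every other library, and its log2 fold change in gld2 against wt was 1.58 ± 0.28 (adjusted p = 7.81e-05). clec-97 (chromosome I, 11152704 to 11154330) had its highest levels in wt, with 2.91, 2.03 and 4.27 CPM in gld2-ccf1, 5.73, 5.48 and 4.63 CPM in gld2-ccr4, 5.77, 4.54 and 5.50 CPM in gld2-parn1, 7.33, 8.87 and 8.34 CPM in gld2 and 16.4, 19.6 and 14.6 CPM in wt. Its log2 fold change was -1.24 ± 0.20 (adjusted p = 2.35e-05) in gld2 against wt, and 17.8% of its exon length is overlapped by clec-98 on the other strand. clec-266 (chromosome X, 6617393 to 6622915) had 5.42, 6.16 and 3.93 CPM in gld2-ccf1, 3.90, 5.50 and 3.97 CPM in gld2-ccr4, 1.23, 3.06 and 1.87 CPM in gld2-parn1, 3.37, 2.36 and 1.66 CPM in gld2 and 7.43, 7.10 and 8.13 CPM in wt. All wt libraries were above every mutant library, with -1.81 ± 0.31 (adjusted p = 5.74e-05) in gld2 against wt.

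Of the 24 tested immune-type members, 6 were higher and 5 lower in gld2 against wt. Of all genes tested 28.8% were higher and 20.2% lower, and whether the class departs from these shares was not tested. The 6 higher members were clec-41, clec-52, clec-86, clec-166, clec-186 and clec-227, and the 5 lower ones were clec-4, clec-10, clec-66, clec-70 and clec-265. clec-52 (chromosome IV, 8167164 to 8168760) had 1.499, 1.96 and 1.59 CPM in gld2-ccf1, 1.16, 1.37 and 2.03 CPM in gld2-ccr4, 3.85, 3.95 and 3.17 CPM in gld2-parn1, 5.10, 4.58 and 5.19 CPM in gld2 and 1.26, 1.05 and 1.53 CPM in wt. The gld2 libraries were the highest, then gld2-parn1, and the other genotypes overlapped, with 1.76 ± 0.27 (adjusted p = 2e-05) in gld2 against wt. clec-166 had 7.43, 4.28 and 6.07 CPM in gld2-ccf1, 9.12, 8.16 and 15.3 CPM in gld2-ccr4, 9.10, 5.596 and 7.03 CPM in gld2-parn1, 5.81, 5.49 and 5.14 CPM in gld2 and 0.293, 0.285 and 1.89 CPM in wt. Every mutant library was above every wt library, and the difference from wt was 2.51 ± 0.51 (adjusted p = 0.00106) in gld2. clec-86 averaged 1.11 ± 0.23 CPM in gld2 and 0.155 ± 0.12 CPM in wt (SD, n = 3), a log2 fold change of 2.59 ± 0.45 (adjusted p = 7.81e-05). It passed the low-count filter only through the mutants, so its call against wt is not independent of that filter. In the other direction, clec-70 (chromosome IV, 3932708 to 3936307) had 0, 0 and 0 CPM in gld2-ccf1, 0.0807, 0.181 and 0 CPM in gld2-ccr4, 0.629, 1.03 and 0.259 CPM in gld2-parn1, 0.380, 0.631 and 0.939 CPM in gld2 and 5.97, 1.68 and 2.49 CPM in wt. Its 3 wt libraries spread widely but stayed above every mutant library, with -2.57 ± 0.63 (adjusted p = 0.00289) in gld2 against wt. The rises of clec-186 and clec-227 in gld2, 0.29 ± 0.12 (adjusted p = 0.0488) for clec-186 and 1.396 ± 0.53 (adjusted p = 0.0341) for clec-227, were each lost without gld2 replicate 1 (adjusted p = 0.180 for clec-186 and 0.178 for clec-227). Both were also lost without wt replicate 1 (0.134 and 0.0959) or 2 (0.0775 and 0.122), clec-227 without gld2 replicate 3 (0.0952), and clec-186 without gld2 replicate 2, wt replicate 3 or any of 5 libraries of the doubles (0.0501 to 0.0725). clec-265 differed by -0.83 ± 0.23 (adjusted p = 0.00472), a call lost without wt replicate 1 (adjusted p = 0.0685).

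In gld2-ccf1 against gld2, 26 of 125 members were higher and 23 lower, where 19.8% and 16.7% of all genes tested were called. With libraries scaled on somatic genes the counts were 12 higher and 39 lower, and without the libraries above 4% ribosomal RNA 14 were lower. In gld2-ccr4 against gld2, 24 were higher and 9 lower, where 11.1% and 9.23% of all genes were called, and 10 higher and 28 lower under the somatic scaling; without gld2 replicate 3 or gld2-ccr4 replicate 3, 5 were lower. In gld2-parn1 against gld2, 6 were higher and 3 lower, where 4.90% and 4.90% were called. These counts were 1 and 16 under the somatic scaling, 16 and 6 by DESeq2 and 12 and 5 in a fit of the 6 libraries alone. The count of 6 higher was 1 without gld2 replicate 1 or gld2-parn1 replicate 1, 2 without gld2-parn1 replicate 3, 3 without gld2 replicate 2 and 10 without wt replicate 3. The count of 3 lower was 5 without gld2-ccf1 replicate 2. The somatic scaling, which sets library sizes on genes of body tissues, moved the median log2 fold change of all genes to -0.51, -0.55 and -0.31 in these 3 comparisons. The median of the members was then -0.36 in gld2-ccf1, -0.28 in gld2-ccr4 and -0.22 in gld2-parn1, against 0.17, 0.27 and 0.12 as scaled here. The 3 comparisons share the gld2 libraries, so they are not independent of each other.

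Within the immune-type class, 7 were higher and 5 lower of 24 in gld2-ccf1, 7 higher and 3 lower in gld2-ccr4, and 1 higher and 1 lower in gld2-parn1, each against gld2. Of all genes tested, 19.8% and 16.7%, 11.1% and 9.23%, and 4.90% and 4.90% were called there. The median log2 fold change of the class was -0.056 in gld2-ccf1, 0.63 in gld2-ccr4 and -0.10 in gld2-parn1. Over the same members, under the somatic scaling the counts higher and lower were 4 and 10 in gld2-ccf1, 1 and 5 in gld2-parn1, and 5 and 5 in gld2-ccr4. The higher members in gld2-ccf1 were clec-4, clec-10, clec-41, clec-66, clec-83, clec-186 and clec-218; clec-83 lost its call without gld2-ccf1 replicate 2 (adjusted p = 0.132). Those in gld2-ccr4 were clec-10, clec-41, clec-62, clec-65, clec-66, clec-169 and clec-218.

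clec-41 (chromosome V, 13134903 to 13138101), linked in worms to survival on Bacillus thuringiensis, had 194, 120.1 and 178 CPM in gld2-ccf1, 159, 215 and 185 CPM in gld2-ccr4, 78.9, 75.9 and 77.2 CPM in gld2-parn1, 78.8, 75.4 and 76.0 CPM in gld2 and 46.4, 50.1 and 45.9 CPM in wt. The gld2-ccf1 and gld2-ccr4 libraries were all at 120.1 CPM or more, the gld2-parn1 and gld2 libraries overlapped, and wt was lowest. Against gld2 the log2 fold change was 1.16 ± 0.10 (adjusted p = 7.36e-08) in gld2-ccf1, 1.27 ± 0.10 (adjusted p = 9.67e-08) in gld2-ccr4 and 0.034 ± 0.10 (adjusted p = 0.881) in gld2-parn1. clec-218 (chromosome V, 8307942 to 8310766) had 57.3, 41.5 and 54.3 CPM in gld2-ccf1, 44.9, 64.6 and 55.5 CPM in gld2-ccr4, 21.5, 27.4 and 22.3 CPM in gld2-parn1, 17.6, 19.9 and 22.1 CPM in gld2 and 22.99, 19.8 and 22.2 CPM in wt. Here gld2-ccf1 and gld2-ccr4 were again high, and the other 3 genotypes overlapped, with 1.43 ± 0.13 (adjusted p = 1.34e-07) in gld2-ccf1 and 1.46 ± 0.13 (adjusted p = 4.13e-07) in gld2-ccr4 against gld2.

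clec-66, clec-10 and clec-4 were lower in gld2 than in wt and higher in 1 or more doubles than in gld2. clec-66 (chromosome II, 12904398 to 12906644) had 9.55, 7.98 and 12.5 CPM in gld2-ccf1, 10.5, 16.4 and 17.4 CPM in gld2-ccr4, 4.98, 4.98 and 4.87 CPM in gld2-parn1, 4.08, 4.78 and 3.98 CPM in gld2 and 8.83, 7.25 and 7.25 CPM in wt. All gld2-ccf1 and gld2-ccr4 libraries lay above every gld2-parn1 and gld2 library; gld2-ccf1 overlapped wt and gld2-ccr4 exceeded it, with 1.30 ± 0.20 (adjusted p = 3.57e-05) in gld2-ccf1 and 1.78 ± 0.20 (adjusted p = 3.9e-06) in gld2-ccr4 against gld2. clec-10 (chromosome II, 402678 to 404180) had 8.14, 4.99 and 7.76 CPM in gld2-ccf1, 20.2, 17.9 and 27.1 CPM in gld2-ccr4, 15.7, 13.4 and 14.2 CPM in gld2-parn1, 4.74, 6.12 and 5.11 CPM in gld2 and 12.7, 15.1 and 13.2 CPM in wt. It was the only immune-type member higher in gld2-parn1 than in gld2, by 1.47 ± 0.17 (adjusted p = 1.95e-05), and rose by 2.02 ± 0.17 (adjusted p = 1.75e-07) in gld2-ccr4. Its gld2-ccf1 libraries overlapped gld2, at 0.46 ± 0.17 (adjusted p = 0.0463). That difference was not called by DESeq2 (adjusted p = 0.0630), was lost without any 1 of 10 single libraries (adjusted p up to 0.156), among them gld2 replicates 1 and 3 and gld2-ccf1 replicates 1 and 3, and was -0.056 under the somatic scaling. clec-4, whose transcripts are known to depend on PMK-1, had 2.88, 1.53 and 3.18 CPM in gld2-ccf1, 0.914, 1.14 and 1.80 CPM in gld2-ccr4, 0.519, 0.780 and 0.721 CPM in gld2-parn1, 0.380, 0.741 and 0.635 CPM in gld2 and 3.19, 2.47 and 1.37 CPM in wt. gld2-ccf1 and wt overlapped above gld2-parn1 and gld2, with -2.20 ± 0.40 (adjusted p = 0.00013) in gld2 against wt, 2.17 ± 0.40 (adjusted p = 0.000296) in gld2-ccf1 against gld2 and 1.12 ± 0.41 (adjusted p = 0.0567) in gld2-ccr4 against gld2. DESeq2 called the difference of clec-4 between gld2-ccr4 and gld2 (adjusted p = 0.0372).

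Some members separated gld2-ccf1 and gld2-ccr4. clec-169 (chromosome IV, 1261324 to 1264622) had 0.734, 0.962 and 1.12 CPM in gld2-ccf1, 7.58, 2.63 and 3.74 CPM in gld2-ccr4, 0.410, 0.724 and 0.490 CPM in gld2-parn1, 0.786, 1.04 and 0.691 CPM in gld2 and 0.731, 0.380 and 0.492 CPM in wt. The lowest gld2-ccr4 library, at 2.63 CPM, was above every library of the other genotypes, by 2.46 ± 0.40 (adjusted p = 0.000200) against gld2. clec-65 (chromosome II, 12901325 to 12903336) had 27.4, 19.7 and 29.5 CPM in gld2-ccf1, 45.5, 62.2 and 56.1 CPM in gld2-ccr4, 36.6, 31.2 and 28.9 CPM in gld2-parn1, 44.2, 41.4 and 34.1 CPM in gld2 and 31.6, 31.2 and 29.6 CPM in wt. Relative to gld2 it was lower in gld2-ccf1, at -0.57 ± 0.12 (adjusted p = 0.000884), and higher in gld2-ccr4, by 0.45 ± 0.12 (adjusted p = 0.0108), with no overlap between any of the 3 genotypes. Its rise in gld2-ccr4 was lost without gld2 replicate 3 (adjusted p = 0.0615) or gld2-ccr4 replicate 2 (adjusted p = 0.0771), and was -0.11 under the somatic scaling. clec-60 (chromosome II, 10480043 to 10481874) is known to be induced by staphylococcal infection and had 2 counts in wt. Its levels were 8.87, 5.70 and 5.29 CPM in gld2-ccf1, 0.968, 0.568 and 0.743 CPM in gld2-ccr4, 0.0273, 0.362 and 0.663 CPM in gld2-parn1, 0.710, 0.577 and 0.580 CPM in gld2 and 0, 0 and 0.0518 CPM in wt. Its gld2-ccf1 libraries were all above 5 CPM and no other library reached 1 CPM, with 3.48 ± 0.51 (adjusted p = 3.35e-05) against gld2 and 0.27 ± 0.52 (adjusted p = 0.766) in gld2-ccr4. Its neighbour clec-61 was also higher in gld2-ccf1, by 2.38 ± 0.77 (adjusted p = 0.0212), at 0.675 ± 0.305 CPM in gld2-ccf1 and 0.132 ± 0.074 CPM in gld2, a call lost without gld2-ccf1 replicate 1 or 3 (adjusted p = 0.0553 and 0.0914) or gld2 replicate 2 or 3 (0.0676 and 0.0910). Summed counts of clec-61 were 70 in gld2-ccf1, 45 in gld2-ccr4, 19 in gld2-parn1, 15 in gld2 and 0 in wt. It passed the low-count filter only through gld2-ccf1 and gld2-ccr4, where it was highest, so its call is not independent of that choice.

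In contrast, clec-190, clec-52 and clec-70 were lower in both gld2-ccf1 and gld2-ccr4 than in gld2. clec-190 (chromosome IV, 15124931 to 15126121) had 1.68, 1.03 and 0.391 CPM in gld2-ccf1, 7.40, 6.41 and 3.57 CPM in gld2-ccr4, 20.97, 11.1 and 9.66 CPM in gld2-parn1, 20.2, 21.7 and 20.1 CPM in gld2 and 8.42, 9.85 and 12.3 CPM in wt. The gld2-ccf1 libraries were all under 2 CPM and the lowest, gld2-ccr4 came next, and gld2 was highest apart from gld2-parn1 replicate 1. Log2 fold changes against gld2 were -4.26 ± 0.44 (adjusted p = 7.53e-06) in gld2-ccf1, -1.84 ± 0.37 (adjusted p = 0.00364) in gld2-ccr4 and -0.55 ± 0.36 (adjusted p = 0.377) in gld2-parn1. clec-52 differed from gld2 by -1.47 ± 0.27 (adjusted p = 0.000268) in gld2-ccf1 and -1.72 ± 0.27 (adjusted p = 0.000155) in gld2-ccr4, at levels that overlapped wt. clec-70 had 0 counts in all 3 gld2-ccf1 libraries against 72 in gld2, at least 21.2-fold lower with a limit of 3 counts over the group, and differed from gld2 by -2.83 ± 0.81 (adjusted p = 0.0212) in gld2-ccr4, a call lost without gld2-ccr4 replicate 1 or 3 or gld2 replicate 3 (adjusted p = 0.0756, 0.0700 and 0.0803). clec-72, in the same run of genes, averaged 0.101 ± 0.0081 CPM in gld2-ccf1 and 0.515 ± 0.086 CPM in gld2 (10 and 58 summed counts), a log2 fold change of -2.24 ± 0.73 (adjusted p = 0.0207); that call was lost without gld2-ccf1 replicate 1 or 3 or gld2 replicate 1 (adjusted p = 0.0650, 0.0588 and 0.0524).

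**Figure D4:**
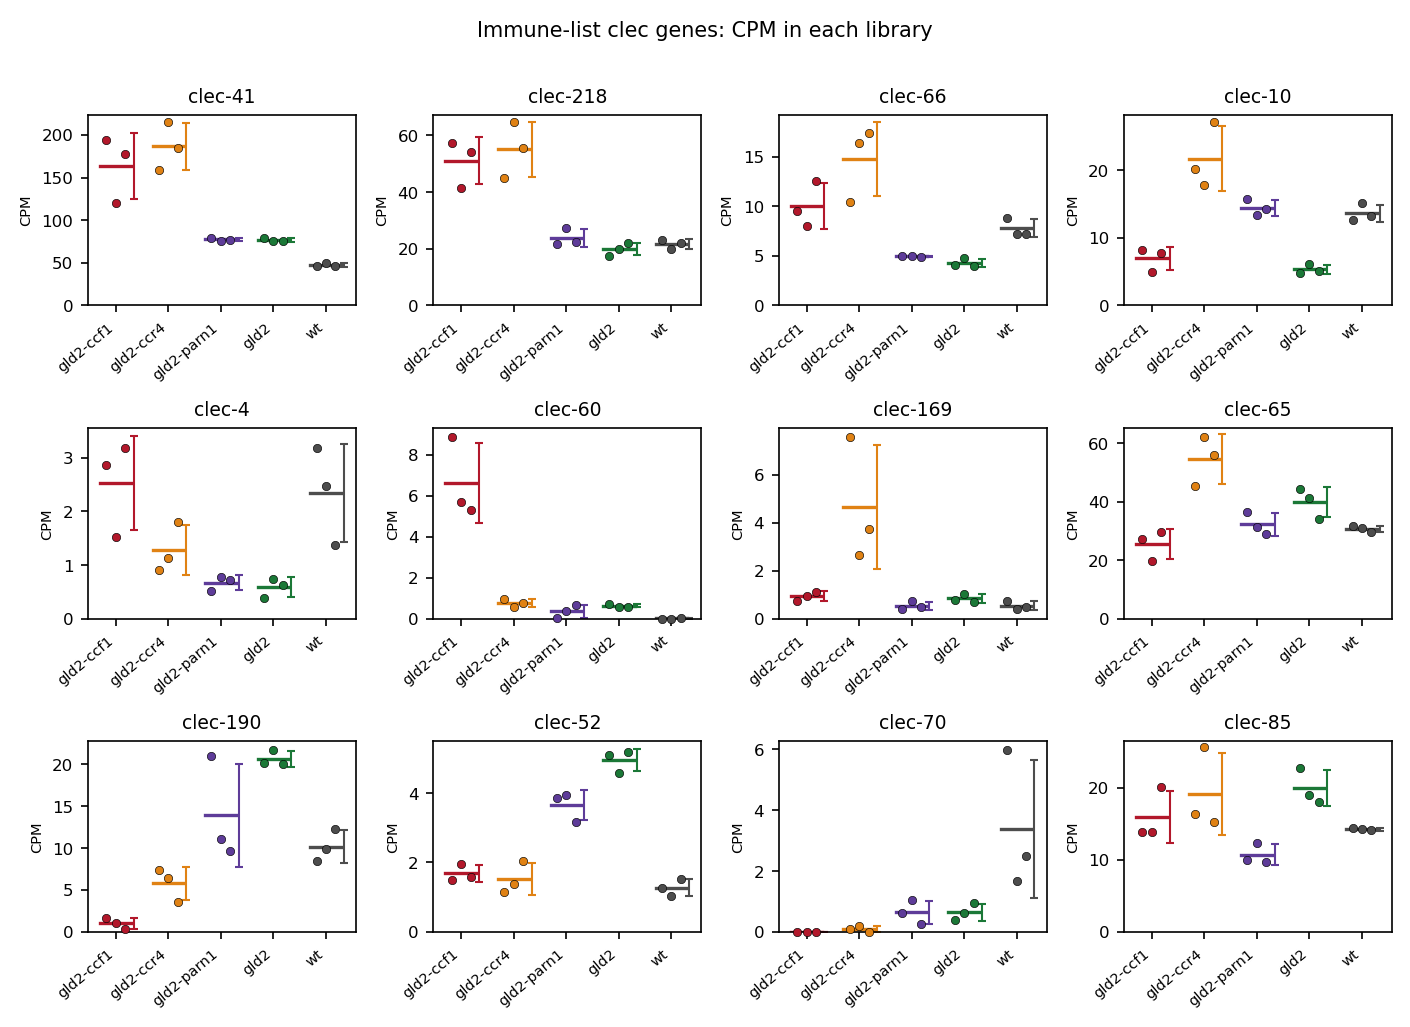
CPM of 12 immune-list clec genes in each library (points); lines are means, bars the SD, and every axis starts at 0. clec-41, clec-218 and clec-66 were high in gld2-ccf1 and gld2-ccr4, clec-60 in gld2-ccf1, clec-169 in gld2-ccr4, and clec-190 and clec-70 were lowest in gld2-ccf1.

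In gld2-parn1, clec-85 was the only immune-type member lower than in gld2. clec-85 (chromosome IV, 2850886 to 2855456), a reporter gene of the PMK-1 response, had 13.8, 13.8 and 20.1 CPM in gld2-ccf1, 16.3, 25.6 and 15.3 CPM in gld2-ccr4, 9.95, 12.4 and 9.74 CPM in gld2-parn1, 22.7, 18.998 and 17.96 CPM in gld2 and 14.4, 14.2 and 14.1 CPM in wt. The gld2-parn1 libraries were all below every library of the other genotypes, with -0.87 ± 0.18 (adjusted p = 0.00408) against gld2, while 27.7% of its exon length is shared with Y54G2A.40 on the same strand. The tests of clec-47 depended on the libraries and the settings of the fit. It had 2.60, 1.75 and 2.29 CPM in gld2-ccf1, 12.6, 0.310 and 0.143 CPM in gld2-ccr4, 15.4, 28.3 and 18.5 CPM in gld2-parn1, 11.002, 17.1 and 14.5 CPM in gld2 and 22.6, 18.4 and 20.5 CPM in wt. Its gld2-ccr4 replicate 1 stood far above the other gld2-ccr4 libraries. With all libraries fitted, its log2 fold change against gld2 was -2.60 ± 1.07 (adjusted p = 0.0836) in gld2-ccf1 and -1.72 ± 1.0002 (adjusted p = 0.268) in gld2-ccr4. Without gld2-ccr4 replicate 1, clec-47 was lower in both, at -2.60 (adjusted p = 1.26e-07) in gld2-ccf1 and -5.93 (adjusted p = 1.2e-08) in gld2-ccr4, and at -0.73 (adjusted p = 0.0072) in gld2 against wt. In gld2-ccf1 against gld2 it was also called by DESeq2 (adjusted p = 0.0371), under the somatic scaling (0.0439) and in the 6 libraries alone (1.8e-06). The same held without gld2-ccr4 replicate 2 (0.0476) or 3 (0.0376). Against wt, gld2-ccf1 was lower with all libraries fitted, at -3.33 ± 1.08 (adjusted p = 0.0250). The untested clec-42 had 9, 7, 4, 8 and 7 summed counts in gld2-ccf1, gld2-ccr4, gld2-parn1, gld2 and wt. clec-7, clec-17, clec-67 and clec-71 passed no test in these 4 comparisons with all libraries fitted.

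**Figure D5:**
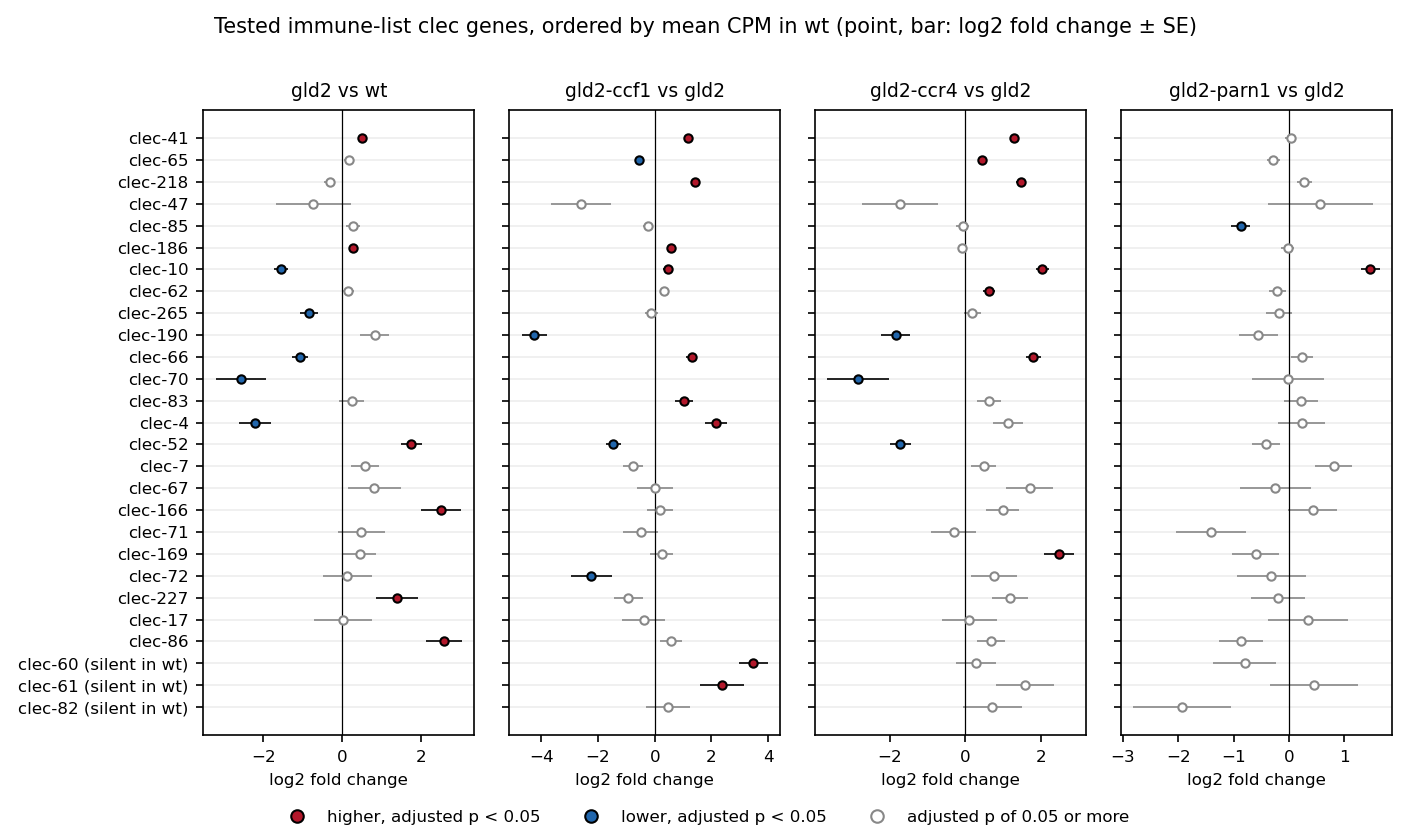
Log2 fold change ± SE of the 27 tested immune-list records (rows, by mean CPM in wt) in gld2 against wt and in each double against gld2; filled points had an adjusted p under 0.05. Points are left out where a gene was silent in wt (gld2 vs wt) or had 0 counts in a group (clec-70 in gld2-ccf1); fewer points are filled for gld2-parn1 (2) than for gld2-ccf1 and gld2-ccr4.

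The doubles were also set against each other, a comparison added after the values were seen. In gld2-ccr4 against gld2-parn1, 9 immune-type members were higher and 3 lower of 24, where 7.34% and 5.95% of all genes were called. Under the somatic scaling 8 were higher and 3 lower. clec-41 differed by 1.24 ± 0.10 (adjusted p = 2.02e-07), clec-218 by 1.181 ± 0.13 (adjusted p = 7.16e-06) and clec-169 by 3.06 ± 0.41 (adjusted p = 6.26e-05). In gld2-ccf1 against gld2-ccr4, 2 were higher (clec-4 and clec-186) and 7 lower, where 14.4% and 11.6% were called, with -1.56 ± 0.17 (adjusted p = 2.48e-06) for clec-10, -1.02 ± 0.12 (adjusted p = 6.07e-06) for clec-65 and -2.20 ± 0.40 (adjusted p = 0.000435) for clec-169. For clec-41 and clec-218 the differences between gld2-ccf1 and gld2-ccr4 were -0.11 ± 0.10 (adjusted p = 0.457) and -0.025 ± 0.13 (adjusted p = 0.914). In gld2-ccf1 against gld2-parn1, 9 were higher and 7 lower, where 20.0% and 17.2% were called, and 5 were higher and 8 lower under the somatic scaling.

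Set against wt directly, 13 of the 24 immune-type members were higher and 4 lower in gld2-ccr4, 7 were higher and 7 lower in gld2-ccf1, and 5 and 5 in gld2-parn1. Over the 109 tested members expressed in wt the counts were 37 higher and 22 lower in gld2-ccf1, where 32.1% and 19.7% of all genes were called. They were 44 and 15 in gld2-ccr4, where 30.0% and 20.8% were called, and 31 and 16 in gld2-parn1, where 28.9% and 21.5% were called. These shares over all genes include genes silent in wt, which the member counts leave out. The member counts keep genes near 0 in wt that passed the low-count filter only through the mutants. Under the somatic scaling the immune-type counts were 5 and 7 in gld2-ccf1, 4 and 6 in gld2-parn1, and 7 and 5 in gld2-ccr4. clec-41 was higher than wt in every mutant, by 1.66 ± 0.10 (adjusted p = 1.76e-10) in gld2-ccf1, 1.77 ± 0.10 (adjusted p = 5.5e-11) in gld2-ccr4 and 0.53 ± 0.10 (adjusted p = 0.000219) in gld2-parn1. clec-190 was lower than wt in gld2-ccf1, at -3.43 ± 0.44 (adjusted p = 1.99e-05). clec-52 did not pass the test against wt, at 0.30 ± 0.28 (adjusted p = 0.399) in gld2-ccf1 and 0.042 ± 0.28 (adjusted p = 0.913) in gld2-ccr4. The rise of clec-10 over wt in gld2-ccr4, 0.47 ± 0.17 (adjusted p = 0.0237), turned to -0.074 under the somatic scaling.

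Of 28 intestine markers, 17 were higher and 5 lower in gld2-ccf1, 17 higher and 1 lower in gld2-ccr4, and 11 higher and 1 lower in gld2-parn1, each against gld2, and 4 were higher and 13 lower in gld2 against wt. Among all genes tested the shares were 19.8% and 16.7%, 11.1% and 9.23%, 4.90% and 4.90%, and 28.8% and 20.2%, in the same order. The 68 tested body-tissue genes of the somatic scaling had 37 higher and 2 lower in gld2-ccf1, and 33 and 3 in gld2-ccr4. They had 16 and 1 in gld2-parn1, and 10 and 16 in gld2 against wt. pept-1, the intestinal oligopeptide transporter, averaged 34.8 ± 4.5 CPM in gld2-ccf1, 74.1 ± 10.2 CPM in gld2-ccr4, 44.3 ± 3.3 CPM in gld2-parn1, 22.02 ± 1.2 CPM in gld2 and 73.2 ± 4.6 CPM in wt. pho-1, an intestinal acid phosphatase, was higher than in gld2 by 1.08 ± 0.11 (adjusted p = 2.82e-07) in gld2-ccf1 and 1.27 ± 0.11 (adjusted p = 1.45e-07) in gld2-ccr4. The list's summed level, which includes the yolk genes vit-2 and vit-6, was 12215 to 19447 CPM in gld2-ccf1, 14173 to 15270.0 CPM in gld2-ccr4, 14328 to 19943 CPM in gld2-parn1, 14107 to 15031 CPM in gld2 and 15147 to 24755 CPM in wt, and no marker was at 0 in any genotype. The part of intestine content in the lectin levels was not tested.

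The silent class is described here without a test against wt, because wt counts chose it. Its 16 tested members enter tests against wt only in counts given over all 125 tested members. Of its 98 members, 43 had over 3 summed counts in gld2-ccf1, 50 in gld2-ccr4, 47 in gld2-parn1 and 47 in gld2. Those shares, between 43.9% and 51.0%, lay below the shares among all 4119 protein-coding genes with 3 or fewer wt counts, 49.8% in gld2-ccf1, 54.1% in gld2-ccr4, 57.9% in gld2-parn1 and 55.7% in gld2. Over 3 counts were found in every mutant for 25 members and in none for 22. For 94 of the 98 the mean stayed under 1 CPM in every mutant, so most silent lectins had few or no counts in any genotype.

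Only clec-60, clec-117, clec-168 and clec-175 exceeded a mean of 1 CPM in a mutant. clec-175 (chromosome IV, 4422329 to 4426566) had 2.11, 1.43 and 2.92 CPM in gld2-ccf1, 2.29, 1.96 and 3.20 CPM in gld2-ccr4, 6.84, 4.34 and 6.37 CPM in gld2-parn1, 1.98, 3.16 and 2.93 CPM in gld2 and 0, 0 and 0 CPM in wt. All 12 mutant libraries held reads and no wt library did. Its 627 counts in gld2-parn1 were at least 203-fold higher than wt, its 299 in gld2 at least 92.8-fold, taking 3 counts over the wt group as the limit. clec-117 (chromosome II, 296227 to 297011) had 1.41, 0.926 and 1.33 CPM in gld2-ccf1, 2.42, 1.91 and 3.23 CPM in gld2-ccr4, 3.14, 1.89 and 2.10 CPM in gld2-parn1, 1.17, 1.89 and 2.29 CPM in gld2 and 0, 0 and 0 CPM in wt. That was at least 86.9-fold higher than wt in gld2-ccr4 and 61.5-fold in gld2. clec-168 (chromosome IV, 1256969 to 1259344), a neighbour of clec-166 and clec-169, had 0.612, 0.285 and 0.0521 CPM in gld2-ccf1, 1.86, 1.34 and 1.03 CPM in gld2-ccr4, 0.328, 0.362 and 0.576 CPM in gld2-parn1, 0.228, 0.577 and 0.331 CPM in gld2 and 0, 0 and 0 CPM in wt. Its gld2-ccr4 libraries were all above 1 CPM and no other library was, although the difference from gld2 narrowly missed the threshold, at 1.88 ± 0.65 (adjusted p = 0.0502). That difference was called by DESeq2 (adjusted p = 0.0238), under the RLE scaling (0.0488) and in the 6 libraries alone (0.00943). It was not called under the somatic scaling. The next members by mean level were clec-22, clec-82, clec-61, clec-76 and clec-198, which averaged under 1 CPM in every mutant; clec-76 and clec-82 had 0 wt counts and 25 and 51 counts in gld2. Of the 16 silent members tested in doubles against gld2, 2 were higher in gld2-ccf1 (clec-60 and clec-61), 1 was higher in gld2-parn1 (clec-175), none was higher in gld2-ccr4, and 0 were lower in any double. Of these, clec-61 was kept by the low-count filter only through its gld2-ccf1 and gld2-ccr4 levels. By DESeq2 or the RLE scaling 1 silent member was higher in gld2-ccr4, and the somatic scaling gave 1 lower in each double. Higher calls over all genes tested made up 19.8% for gld2-ccf1, 11.1% for gld2-ccr4 and 4.90% for gld2-parn1. Lower calls made up 16.7%, 9.23% and 4.90%, respectively. A departure of the silent class from these rates was not tested.

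Outside the immune list, the members that changed in the doubles included the following. clec-150 (chromosome III, 1002707 to 1006298) had 54.4, 38.3 and 49.8 CPM in gld2-ccf1, 76.2, 98.5 and 97.4 CPM in gld2-ccr4, 67.6, 67.6 and 59.4 CPM in gld2-parn1, 47.03, 52.2 and 52.4 CPM in gld2 and 68.0, 70.96 and 73.8 CPM in wt. gld2-ccr4 was highest, and gld2-ccf1 and gld2 overlapped lowest. It was higher than in gld2 by 0.83 ± 0.09 (adjusted p = 5.32e-06) in gld2-ccr4 and 0.38 ± 0.09 (adjusted p = 0.0151) in gld2-parn1. The second call was lost without gld2 replicate 1 or 2 or gld2-parn1 replicate 1 (adjusted p = 0.0879, 0.0519 and 0.0693), and the first was not called under the somatic scaling (adjusted p = 0.168). clec-50 had 104.4, 76.1 and 101 CPM in gld2-ccf1, 109, 179 and 182.2 CPM in gld2-ccr4, 80.1, 49.98 and 40.3 CPM in gld2-parn1, 66.3, 65.8 and 69.1 CPM in gld2 and 25.9, 32.4 and 40.6 CPM in wt. It was higher in gld2-ccr4 than in gld2 by 1.21 ± 0.25 (adjusted p = 0.00579) with no overlap. clec-170 averaged 6.19 ± 0.537 CPM in gld2-ccr4 and 1.32 ± 0.295 CPM in gld2, a log2 fold change of 2.21 ± 0.29 (adjusted p = 2.16e-05). clec-187 had 10.5, 9.58 and 10.4 CPM in gld2-ccf1, 9.33, 8.16 and 8.58 CPM in gld2-ccr4, 9.27, 9.47 and 8.85 CPM in gld2-parn1, 5.20, 7.96 and 4.64 CPM in gld2 and 4.62, 4.47 and 6.45 CPM in wt. All gld2-ccf1, gld2-ccr4 and gld2-parn1 libraries lay above every gld2 and wt library, with 0.87 ± 0.19 (adjusted p = 0.00117) in gld2-ccf1 and 0.66 ± 0.19 (adjusted p = 0.0304) in gld2-parn1 against gld2. The first was not called under the somatic scaling (adjusted p = 0.228), and the second was lost without any 1 gld2-parn1 library or without gld2 replicate 1 or 3 (adjusted p between 0.0661 and 0.126). clec-196 was lower in gld2-ccr4 than in gld2, at -1.37 ± 0.34 (adjusted p = 0.00734). clec-165 at 1.56 ± 0.54 (adjusted p = 0.047) and clec-264 at -0.79 ± 0.26 (adjusted p = 0.0385) narrowly passed in gld2-ccr4 against gld2, and each call was lost without any 1 gld2-ccr4 library or without gld2 replicate 2 or 3 (adjusted p between 0.0530 and 0.186).

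In gld2-ccf1, clec-80 (chromosome IV, 2823746 to 2828069) had 16.6, 16.03 and 15.1 CPM in gld2-ccf1, 6.88, 9.14 and 9.03 CPM in gld2-ccr4, 6.01, 6.54 and 7.70 CPM in gld2-parn1, 3.52, 5.30 and 5.66 CPM in gld2 and 3.54, 2.503 and 3.32 CPM in wt. Its gld2-ccf1 libraries were above every other library, by 1.81 ± 0.22 (adjusted p = 2.54e-06) against gld2. clec-54 averaged 8.66 ± 1.17 CPM in gld2-ccf1 and 3.33 ± 0.956 CPM in gld2, a difference of 1.46 ± 0.21 (adjusted p = 2.23e-05). In the other direction, clec-222 and clec-223, adjacent on chromosome V (11271351 to 11278161), were both lower in gld2-ccf1. clec-222 had 2.42, 1.25 and 2.08 CPM in gld2-ccf1, 7.58, 10.4 and 3.83 CPM in gld2-ccr4, 4.98, 2.84 and 2.42 CPM in gld2-parn1, 10.7, 12.1 and 9.34 CPM in gld2 and 12.6, 9.63 and 10.5 CPM in wt. clec-223 had 6.91, 7.34 and 5.601 CPM in gld2-ccf1, 18.1, 30.7 and 23.7 CPM in gld2-ccr4, 35.98, 25.4 and 20.5 CPM in gld2-parn1, 21.9, 25.3 and 30.4 CPM in gld2 and 20.0, 21.9 and 25.4 CPM in wt. Neither gene overlapped between gld2-ccf1 and gld2, with log2 fold changes of -2.41 ± 0.32 (adjusted p = 1.38e-05) for clec-222 and -1.88 ± 0.24 (adjusted p = 2.27e-05) for clec-223. In gld2-parn1 against gld2, clec-222 was lower at -1.62 ± 0.30 (adjusted p = 0.00267), while clec-223 stood at 0.090 ± 0.23 (adjusted p = 0.859). clec-53 averaged 1.55 ± 0.162 CPM in gld2-ccf1 and 5.71 ± 0.65 CPM in gld2, a log2 fold change of -1.80 ± 0.25 (adjusted p = 1.15e-05).

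The members lie in runs. With a gap of at most 10 kb, 155 of the 240 members fall in 47 runs of 2 or more, and 20 of these runs hold both silent and expressed members. Members lie on chromosomes I (36), II (48), III (14), IV (53), V (86) and X (3), and 43 of the 98 silent members lie on V. The longest run holds 13 members on chromosome V (16839121 to 16869840), 8 of them silent, and of its 4 tested members expressed in wt none passed the test in gld2 against wt. The run of 11 on chromosome IV (3922165 to 3975721), from clec-67 to clec-79, holds clec-70, clec-72, clec-73 and clec-79 among others; of its 8 tested members expressed in wt 3 were higher and 1 lower in gld2 against wt. Of its 9 tested members 1 was higher and 4 lower in gld2-ccf1 against gld2. In the run of 5 from clec-62 to clec-66, 3 of the 4 tested members were higher in gld2-ccr4 than in gld2. In gld2 against wt 28.8% of all genes tested were higher and 20.2% lower. Against gld2 the shares were 19.8% and 16.7% in gld2-ccf1, and 11.1% and 9.23% in gld2-ccr4. Whether any run departs from these shares was not tested. In gld2 against wt, counting members expressed in wt, 4 runs had 2 or more calls and 2 of them held calls in both directions. In gld2-ccf1 against gld2, 8 runs had 2 or more calls and 2 of them held calls in both directions.

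Other genes of intestinal immunity, from lists picked by hand, were counted in the same way. For scale, gld2-ccf1 had 19.8% of all genes tested higher than gld2 and 16.7% lower. The all-gene rates for gld2-ccr4 were 11.1% higher, 9.23% lower, while gld2-parn1 had 4.90% each way. Between gld2 and wt they were 28.8% higher, 20.2% lower. Whether a list departs from these rates was not tested. Of 43 other gut effectors (41 tested), 16 were higher and 6 lower in gld2-ccf1, 21 higher and 1 lower in gld2-ccr4, and 1 higher and 3 lower in gld2-parn1, each against gld2, and 16 were higher and 6 lower in gld2 against wt. lys-1, a lysozyme, had 869, 639 and 859 CPM in gld2-ccf1, 321, 460.1 and 420.5 CPM in gld2-ccr4, 264, 231 and 238 CPM in gld2-parn1, 202, 229 and 220.3 CPM in gld2 and 124, 115 and 127 CPM in wt. gld2-ccf1 was highest and gld2-ccr4 next, both apart from gld2, by 1.93 ± 0.11 (adjusted p = 1.12e-09) and 0.87 ± 0.10 (adjusted p = 2.24e-05). irg-7, a secreted zonadhesin-like protein of the intestine, was higher by 1.24 ± 0.11 (adjusted p = 3.69e-07) in gld2-ccf1 and 0.80 ± 0.11 (adjusted p = 8.73e-05) in gld2-ccr4. lys-7, another lysozyme, averaged 60.96 ± 5.3 CPM in gld2 and 4.37 ± 0.92 CPM in wt, a log2 fold change of 3.60 ± 0.15 (adjusted p = 4.03e-12), and thn-2, a thaumatin-like protein, differed between gld2-parn1 and gld2 by -1.03 ± 0.10 (adjusted p = 2.69e-06).

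Regulators were taken from other lists picked by hand. Their counts are to be read beside the all-gene rates given for the effectors, and no difference from those rates was tested. No counts under the somatic scaling are given for the regulators or the effectors. That scaling moved the all-gene median log2 fold change of gld2-ccf1 against gld2 to -0.51. Of the 12 genes of the p38 pathway, 6 were higher and 0 lower in gld2-ccf1, 0 higher and 1 lower in gld2-parn1, and 0 higher and 3 lower in gld2-ccr4, each against gld2. Of the 12, 4 were higher and 3 lower in gld2 against wt. sek-1, the MAP kinase kinase above PMK-1, was higher in gld2 than in wt by 0.79 ± 0.10 (adjusted p = 2.74e-06), and tpa-1, a protein kinase C, by 1.21 ± 0.17 (adjusted p = 4.02e-06). atf-7, the transcription factor downstream of PMK-1, was higher in gld2-ccf1 by 0.67 ± 0.20 (adjusted p = 0.0207), and dkf-2, a protein kinase D, was lower in gld2-ccr4, at -0.53 ± 0.16 (adjusted p = 0.0311). Of 18 other regulators of gut immunity, 13 were higher and 0 lower in gld2-ccf1 against gld2. In gld2-ccr4 4 were higher and 2 lower, in gld2-parn1 1 and 0, and 1 was higher and 7 lower in gld2 against wt. Among them, nhr-86, a nuclear receptor that senses a pathogen metabolite, differed by 0.74 ± 0.08 (adjusted p = 6.36e-07) in gld2-ccf1 against gld2 and -0.57 ± 0.08 (adjusted p = 4.4e-06) in gld2 against wt, and atfs-1, the factor of the mitochondrial unfolded protein response, by 0.68 ± 0.13 (adjusted p = 0.000409) and -0.68 ± 0.13 (adjusted p = 0.000228). Of 10 genes of the DBL-1 pathway, 4 were higher and 0 lower in gld2 against wt, among them the Smads sma-3 at 1.67 ± 0.18 (adjusted p = 1.19e-07) and sma-4 at 1.28 ± 0.17 (adjusted p = 2.24e-06). Of the same 10, 5 were higher and 3 lower in gld2-ccf1, 2 higher and 1 lower in gld2-ccr4, and 0 changed in gld2-parn1, each against gld2. Direct control of any lectin by these genes was not measured.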

How the data were processed

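Whole-worm RNA-seq counts were analysed for 15 libraries, 3 in each of 5 genotypes. The authors deposited 1 table of whole-number counts per gene, not normalized; the submitters' processing notes name build WBcel235, DESeq2 1.18.1, Subread 1.4.6-p4 with featureCounts, the aligner STAR 2.5.2b and FastQC, in no order. Strand and multimapping settings of the counting are not given in the sources used here. Symbols and coordinates came from a WBcel235 annotation, which lacked 255 of the 46739 gene identifiers (0.155% of counts). Levels (CPM) are counts per 1000000 counts of the library.

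Tests used edgeR 4.0.16 (R 4.3.3): low-count filter, TMM scaling, a quasi-likelihood fit over all 15 libraries with 5 genotype means, and Benjamini-Hochberg adjustment over 16888 genes. A test on simulated data for gld2 against wt, on 16072 genes, recovered 71% of 2-fold and 95% of 4-fold changes. The simulation gave all genes the same spread and changed only genes above a low expected count. Its rates therefore do not describe members with few counts or a wide spread. Ratios against 0 counts use a floor of 3 counts summed over the group, and floors cover counting error only. The genes named were drawn from the 10 members with the highest TPM in wt, all tested immune-list members and the 10 highest silent members. Also named were up to 6 called members per direction and comparison, with a mean of at least 1 CPM. From some of the other lists up to 4 genes each were named. These had the smallest adjusted p in gld2 against wt or, for part of the lists, the highest levels. Members and lists were chosen with earlier results of these data known. Alternatives covered scaling, filter, tool (DESeq2 1.42.0), replicate block, libraries left out and the libraries fitted.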

Additional observations from a re-analysis of the deposited data

Results flagged for a closer look

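clec-65 differed between gld2-ccf1 and gld2-ccr4 when each was set against gld2. Its log2 fold change was -0.57 ± 0.12 (SE, edgeR adjusted p = 0.000884) in gld2-ccf1 and 0.45 ± 0.12 (adjusted p = 0.0108) in gld2-ccr4, and the difference between them was -1.02 ± 0.12 (adjusted p = 6.07e-06). All 3 gld2-ccf1 libraries were below all 3 gld2 libraries, and all 3 gld2-ccr4 libraries were above them.

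clec-182 differed in the same sense between gld2-ccf1 and gld2-parn1. Its log2 fold change against gld2 was -1.29 ± 0.36 (edgeR adjusted p = 0.00773) in gld2-ccf1 and 1.16 ± 0.33 (adjusted p = 0.0314) in gld2-parn1, with a difference of -2.46 ± 0.36 (adjusted p = 2.72e-05). Sperm markers were also lowest among the mutants in gld2-ccf1 and highest in gld2-parn1, and their part in this difference was not tested.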

How the results depend on the processing

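Under all 23 alternatives 125 calls on named members stayed the same, and 66 changed under at least 1. Counts against wt are given here over all 125 tested members, with 37 higher in gld2, 51 in gld2-ccf1, 43 in gld2-parn1 and 58 in gld2-ccr4; without the members silent in wt, an alternative chosen after seeing the data, they were 27, 37, 31 and 44. Scaling on somatic genes gave 12 higher and 39 lower members in gld2-ccf1, 1 and 16 in gld2-parn1, and 10 and 28 in gld2-ccr4, each against gld2, and 25 lower in gld2-ccr4 against wt. It reversed clec-10 (-0.056), clec-88 (-0.28) and clec-91 (-0.18) in gld2-ccf1 against gld2, clec-65 (-0.11), clec-87 (-0.28) and clec-187 (-0.016) in gld2-ccr4 against gld2, clec-10 in gld2-ccr4 against wt (-0.074) and clec-88 in gld2-ccf1 against gld2-parn1 (-0.0037). Without the libraries above 4% ribosomal RNA, 14 members were lower in gld2-ccf1 against gld2. In gld2-parn1 against gld2, DESeq2 called 16 higher and 6 lower, a fit of the 6 libraries alone 12 and 5, and no filter or the stricter filter 5 lower. The stricter filter, which tests fewer genes, called 33 higher in gld2-ccf1 against wt. TMM effective library sizes moved the summed level of all members in wt to 2331 CPM, of immune-type members to 256 CPM in gld2 and 239 CPM in wt, and of the other expressed members to 1776 CPM in gld2-ccr4 and 2091 CPM in wt. The cause of these shifts was not tested.

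Leaving out single libraries gave 34 to 40 higher and 14 to 20 lower in gld2 against wt, 23 to 28 and 17 to 23 in gld2-ccf1 against gld2, 18 to 31 and 5 to 10 in gld2-ccr4 against gld2, and 1 to 10 and 2 to 5 in gld2-parn1 against gld2. The count of 1 came without gld2 replicate 1 or gld2-parn1 replicate 1. Against wt the ranges were 43 to 55 and 19 to 24 in gld2-ccf1, 36 to 43 and 14 to 17 in gld2-parn1, and 47 to 59 and 10 to 16 in gld2-ccr4. Libraries with the same replicate number did not deviate together (correlations from -0.097 to 0.092, 7 of 15 libraries correlating best with their own number). With the replicate number as a block, the counts were 35 and 18, 25 and 22, 22 and 9, and 8 and 3 in these first 4 comparisons, and against wt 49 and 24 in gld2-ccf1, 43 and 16 in gld2-parn1, and 55 and 15 in gld2-ccr4.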
